A study of Mus musculus with 6 samples.

Results

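The 10 genes described here make or control the MHC class I antigen presentation pathway, and they were taken by name: H2-K1, H2-D1, B2m, Tap1, Tap2, Tapbp, Psmb8, Psmb9, Psmb10 and Nlrc5. They are 10 of the 57180 genes in the count table, and all 10 were among the 18143 genes that passed the filter on low counts. Each was read in 6 bulk polyA RNA-seq libraries of mouse fibroblasts in culture: cardiac, lung and tail tip fibroblasts, each given Ad-Cre, labelled as the GATA4 knockout, or the control virus Ad-GFP. Ad-Cre and Ad-GFP are adenoviral vectors that carry the Cre recombinase and green fluorescent protein. All 6 libraries carry the genotype label WT, were grown in DMEM with 10% FBS and were harvested 48 hours after transduction, with 1 library per group. The labels give no strain, sex, age, number of animals or floxed allele.

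Class I molecules show peptides from inside the cell to CD8 T cells. The proteasome cuts cytosolic proteins into peptides, the TAP transporter carries them into the endoplasmic reticulum, and tapasin helps to load them onto a heavy chain paired with beta-2 microglobulin. Fibroblasts present antigen by this route at a low basal level, and interferons raise most of the genes, in part through IRF1 and the transactivator NLRC5.

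Gata4, the gene named in the knockout label, had 149 and 147 CPM in the cardiac Ad-Cre and Ad-GFP libraries, 19.2 and 14.7 CPM in the lung Ad-Cre and Ad-GFP libraries, and 2 reads and 1 read in the tail tip Ad-Cre and Ad-GFP libraries. CPM are read counts scaled to library size, with TMM factors that correct for library composition. Gata4 RNA was thus not lower in the libraries labelled Ad-Cre, although a gene count would not show a small deletion; Ad-Cre below means the library labelled so. Total counts lay between 26170316 and 33779069. The 10 fibroblast markers had reads in every library and summed to 7817 to 23360 CPM, with Fap, a serine protease of activated fibroblasts, no higher than 1.96 CPM. Macrophage and leukocyte markers were also present, and differed between the origins: the 14 markers summed to 670 and 1103 CPM in the cardiac Ad-Cre and Ad-GFP libraries, 26.3 and 44.4 CPM in the lung Ad-Cre and Ad-GFP libraries, and 4761 and 5615 CPM in the tail tip Ad-Cre and Ad-GFP libraries. Lyz2 made up most of the cardiac sums, at 481 and 815 CPM in the Ad-Cre and Ad-GFP libraries. It also made up most of the tail tip sums, at 3388 and 3955 CPM in the Ad-Cre and Ad-GFP libraries. C1qa and C1qb had no read in either lung library, and Adgre1, Itgam and C1qc had none in the lung Ad-Cre library. Leukocytes carry class I molecules and immunoproteasomes themselves, so these sums stand beside each origin comparison below. In bulk libraries a gene read from fewer cells cannot be told apart from a gene with less RNA per cell.

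The promoters are shown because the heavy chain and beta-2 microglobulin genes are known to share an upstream module of X and Y elements that NLRC5 acts through. RefSeq sequence of GRCm38.p6 was found for 8 of the 10 members; the counts were made on another build, so no position is carried over. Each line gives the 250 bases before the start of transcription, 5′ to 3′ on the gene's strand. Capitals mark matches, on either strand, to TGACG (the core of the X2 element), CCAAT (the Y element, read ATTGG on the other strand), the interferon-stimulated response element core and its variant TTTCNCTTC, GGGNATTCC (an NF-kB site) or TTCNNNGAA (a gamma-activated site).
H2-K1: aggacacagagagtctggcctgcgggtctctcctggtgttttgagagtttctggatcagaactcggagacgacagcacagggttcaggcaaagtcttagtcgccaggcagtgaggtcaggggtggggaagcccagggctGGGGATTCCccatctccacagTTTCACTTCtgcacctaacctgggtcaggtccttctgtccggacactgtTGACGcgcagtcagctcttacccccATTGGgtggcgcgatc
H2-D1: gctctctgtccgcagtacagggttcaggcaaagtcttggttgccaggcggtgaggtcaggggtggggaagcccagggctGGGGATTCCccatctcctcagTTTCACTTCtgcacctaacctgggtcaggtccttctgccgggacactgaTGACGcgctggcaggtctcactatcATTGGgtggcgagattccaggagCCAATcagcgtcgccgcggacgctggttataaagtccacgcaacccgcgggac
B2m: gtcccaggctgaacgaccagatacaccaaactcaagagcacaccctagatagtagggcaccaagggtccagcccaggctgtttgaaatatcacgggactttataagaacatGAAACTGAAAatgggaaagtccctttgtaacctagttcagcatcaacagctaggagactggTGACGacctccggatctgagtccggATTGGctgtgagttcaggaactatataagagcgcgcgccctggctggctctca
Tap1: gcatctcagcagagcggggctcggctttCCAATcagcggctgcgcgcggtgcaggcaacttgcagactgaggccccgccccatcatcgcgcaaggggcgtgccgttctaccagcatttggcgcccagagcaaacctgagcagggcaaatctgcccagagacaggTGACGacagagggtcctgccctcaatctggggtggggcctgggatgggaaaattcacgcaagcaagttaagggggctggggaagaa
Psmb8: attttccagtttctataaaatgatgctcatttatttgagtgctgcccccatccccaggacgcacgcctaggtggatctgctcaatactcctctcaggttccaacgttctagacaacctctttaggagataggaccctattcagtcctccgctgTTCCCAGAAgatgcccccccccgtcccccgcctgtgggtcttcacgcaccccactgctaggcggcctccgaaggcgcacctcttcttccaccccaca
The lines are H2-K1 chr17:34000348-34000597 on the minus strand, H2-D1 chr17:35262844-35263093 on the plus strand, B2m chr2:122147437-122147686 on the plus strand, Tap1 chr17:34187306-34187555 on the plus strand and Psmb8 chr17:34197945-34198194 on the plus strand. In the promoters of H2-K1, H2-D1 and B2m, ATTGG begins 25 bases after TGACG begins. That spacing was noticed on reading the sequences, and it occurs in 30 of 32851 promoter windows of the same length, or 0.0913%. TGACG alone was in 5 of 8 members (H2-K1, H2-D1, B2m, Tap1 and Psmb9) and in 17.8% of all windows, and CCAAT was in 6 of 8 (those 5 and Tapbp) and in 33.8% of all windows. The response element core was in B2m (2.98% of all windows), TTCNNNGAA in Psmb8 (7.02%), and GGGANTTCC, the first NF-kB form searched, was in no member and 1.43% of windows. H2-K1 and H2-D1 both hold GGGNATTCC (0.645% of windows) and TTTCNCTTC (2% of windows), a pair of forms searched only after the sequences had been read. The aligned stretch of the H2-K1 and H2-D1 promoters was identical at 161 of 177 positions (91%). Tap1 and Psmb9 point away from each other with 225 bases between their starts, so the Tap1 line above also holds most of the Psmb9 promoter on its other strand. Their TGACG matches are the same bases, and so are their CCAAT matches. The 5 of 8 and 6 of 8 above therefore count each of these sites for both genes.

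Levels grouped by origin. Summed over the 10 genes, the level was 592 and 709 CPM in the cardiac Ad-Cre and Ad-GFP libraries, 1100 and 966 CPM in the lung Ad-Cre and Ad-GFP libraries, and 2433 and 2553 CPM in the tail tip Ad-Cre and Ad-GFP libraries. Both tail tip libraries lay above the other 4. Levels per kilobase were taken over all exon bases annotated for a gene in any transcript, which can exceed the length of the RNA made. The order of genes on this scale therefore depends on the annotation. B2m was the highest of the 10 in all 6 libraries by CPM and per kilobase, at 359 to 1161 CPM per kb. The heavy chains H2-K1 and H2-D1 came next in every library, at 32.6 to 210 CPM per kb, and Psmb8, Psmb9 or Nlrc5 was lowest.

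**Figure D1:**
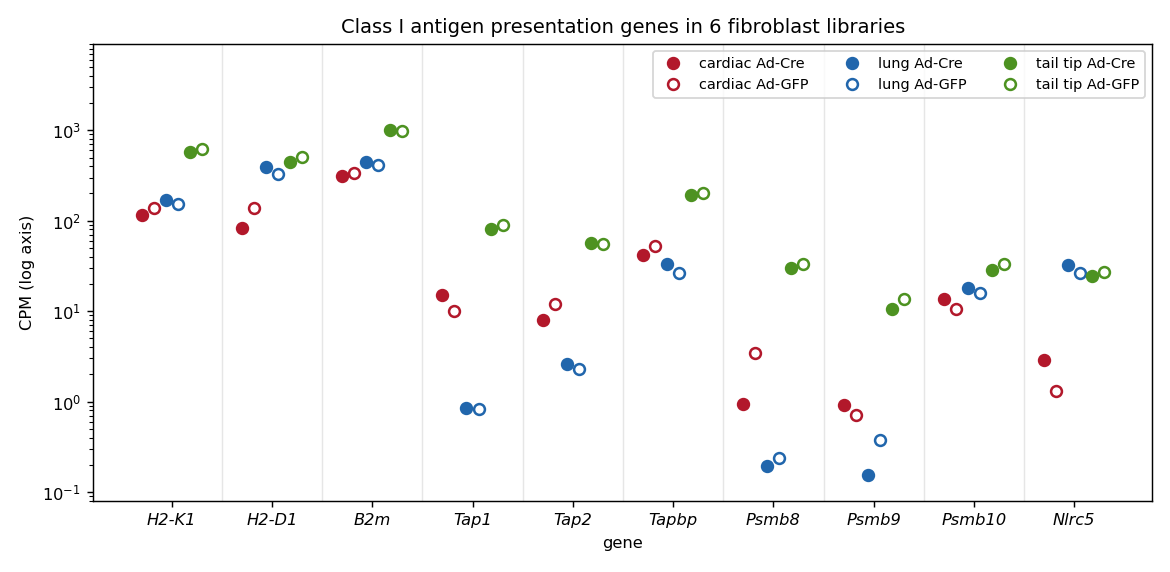
Level of each of the 10 genes (x axis) in CPM on a log y axis, 1 point per library, coloured by origin, with filled points for Ad-Cre and open points for Ad-GFP. The tail tip points of Tap1 (80.4 and 90.5 CPM) stand above the cardiac points (15.0 and 10.1 CPM) and the lung points (0.858 and 0.824 CPM), whereas the lung and tail tip points of Nlrc5 lie together.

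Between cardiac and lung fibroblasts the 10 genes differed in both directions. Of the peptide supply genes, Tap1, Tap2, Tapbp, Psmb8 and Psmb9 were higher in cardiac fibroblasts, while Psmb10 had the opposite sign (-0.49) and was not called. The heavy chain H2-D1 and the transactivator Nlrc5 were lower. In this comparison 5 of 10 genes were called higher and 2 lower by edgeR's quasi-likelihood test at a Benjamini-Hochberg adjusted p under 0.05, where 20.8% of all tested genes were called higher and 17.6% lower. The count of lower genes is thus near the share of all tested genes. Among the higher genes, Tapbp and Psmb9 lost their calls in some of the alternatives given below. The median log2 fold change was 0.16 over the 10 genes and -0.01 over all tested genes. Of the 14 leukocyte markers, 13 were also higher in cardiac fibroblasts; their part in the result was not tested.

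Tap1, a subunit of the peptide transporter, had 15.0 and 10.1 CPM in the cardiac Ad-Cre and Ad-GFP libraries, 0.858 and 0.824 CPM in the lung Ad-Cre and Ad-GFP libraries, and 80.4 and 90.5 CPM in the tail tip Ad-Cre and Ad-GFP libraries. The 3 origins did not overlap, and the lung libraries held only 22 and 24 reads of it (Ad-Cre and Ad-GFP). The difference of cardiac minus lung was 3.88 on the log2 scale (SE 0.27, adjusted p = 8.8e-05 by edgeR's quasi-likelihood test). Tap2, the partner subunit, had 8.02 and 11.9 CPM in the cardiac Ad-Cre and Ad-GFP libraries, 2.57 and 2.30 CPM in the lung Ad-Cre and Ad-GFP libraries, and 57.1 and 55.6 CPM in the tail tip Ad-Cre and Ad-GFP libraries. Its order was the same, with a smaller step of 2.02 between cardiac and lung (SE 0.24, edgeR adjusted p = 0.000922). Tapbp encodes tapasin, which bridges TAP and the empty heavy chain. It had 42.2 and 53.0 CPM in the cardiac Ad-Cre and Ad-GFP libraries, 33.1 and 26.6 CPM in the lung Ad-Cre and Ad-GFP libraries, and 193 and 205 CPM in the tail tip Ad-Cre and Ad-GFP libraries. The difference of 0.67 between cardiac and lung (SE 0.19, edgeR adjusted p = 0.0277) did not pass without the lung Ad-GFP library, where it was 0.37 (edgeR adjusted p = 0.293).

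The inducible catalytic subunits replace constitutive ones in the immunoproteasome, a form of the proteasome whose cuts favour class I ligands. Psmb8 (LMP7) had 0.950 and 3.47 CPM in the cardiac Ad-Cre and Ad-GFP libraries, 0.195 and 0.240 CPM in the lung Ad-Cre and Ad-GFP libraries, and 29.8 and 33.2 CPM in the tail tip Ad-Cre and Ad-GFP libraries. The lung values stand for 5 and 7 reads (Ad-Cre and Ad-GFP), and cardiac exceeded lung by 3.23 on the log2 scale (SE 0.57, edgeR adjusted p = 0.00464). Psmb9 (LMP2) had 0.917 and 0.707 CPM in the cardiac Ad-Cre and Ad-GFP libraries, 0.156 and 0.378 CPM in the lung Ad-Cre and Ad-GFP libraries, and 10.7 and 13.7 CPM in the tail tip Ad-Cre and Ad-GFP libraries. Its difference of cardiac minus lung was 1.60 (SE 0.50, edgeR adjusted p = 0.0407), and this call was the least stable. It was lost with limma-voom (adjusted p = 0.110) and, in edgeR, without the cardiac Ad-Cre library (adjusted p = 0.0610), the lung Ad-Cre library (adjusted p = 0.249), the tail tip Ad-Cre library (adjusted p = 0.0662) or the tail tip Ad-GFP library (adjusted p = 0.0892). Psmb10 (MECL-1) went its own way, with 13.6 and 10.7 CPM in the cardiac Ad-Cre and Ad-GFP libraries, 17.9 and 16.0 CPM in the lung Ad-Cre and Ad-GFP libraries, and 28.3 and 32.9 CPM in the tail tip Ad-Cre and Ad-GFP libraries. Cardiac minus lung was -0.49 for Psmb10 (SE 0.20, edgeR adjusted p = 0.101), and passed without the cardiac Ad-Cre library, at -0.68 (edgeR adjusted p = 0.00811).

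H2-D1, a classical heavy chain, had 84.0 and 138 CPM in the cardiac Ad-Cre and Ad-GFP libraries, 393 and 327 CPM in the lung Ad-Cre and Ad-GFP libraries, and 441 and 503 CPM in the tail tip Ad-Cre and Ad-GFP libraries. Lung stood close to tail tip for this gene, and cardiac fell below lung by 1.73 on the log2 scale (SE 0.24, edgeR adjusted p = 0.00162). H2-K1, the other classical heavy chain measured, had 116 and 139 CPM in the cardiac Ad-Cre and Ad-GFP libraries, 170 and 153 CPM in the lung Ad-Cre and Ad-GFP libraries, and 571 and 617 CPM in the tail tip Ad-Cre and Ad-GFP libraries. Here lung stood close to cardiac: cardiac minus lung was -0.35 (SE 0.16, edgeR adjusted p = 0.120), and it passed without the cardiac Ad-GFP library, at -0.53 (edgeR adjusted p = 0.00591). B2m encodes the light chain that every class I heavy chain pairs with. It had 309 and 341 CPM in the cardiac Ad-Cre and Ad-GFP libraries, 450 and 413 CPM in the lung Ad-Cre and Ad-GFP libraries, and 998 and 975 CPM in the tail tip Ad-Cre and Ad-GFP libraries. For B2m cardiac minus lung was -0.41 (SE 0.15, edgeR adjusted p = 0.0656), and it passed with DESeq2 (adjusted p = 0.0306), in edgeR without the low-count filter (adjusted p = 0.0382) or the virus term (adjusted p = 0.0326), and in edgeR without the cardiac Ad-GFP library, at -0.56 (adjusted p = 0.00380).

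Nlrc5, the transactivator of class I genes, had 2.91 and 1.32 CPM in the cardiac Ad-Cre and Ad-GFP libraries, 32.2 and 26.6 CPM in the lung Ad-Cre and Ad-GFP libraries, and 24.2 and 27.0 CPM in the tail tip Ad-Cre and Ad-GFP libraries. The lung and tail tip ranges overlapped, and both cardiac libraries lay far below. Cardiac minus lung was -3.83 (SE 0.33, edgeR adjusted p = 0.000197), the opposite sign to Tap1, Tap2 and Tapbp. In the lung libraries, then, Nlrc5 was at its tail tip level while Tap1, Psmb8 and Psmb9 were at the lowest levels of the 3 origins. A noncoding gene on the opposite strand, 9330175E14Rik, overlaps Nlrc5 and had 3 and 4 reads in the cardiac Ad-Cre and Ad-GFP libraries, 21 and 22 in the lung Ad-Cre and Ad-GFP libraries, and 76 and 55 in the tail tip Ad-Cre and Ad-GFP libraries, against 43 to 859 reads of Nlrc5. In the GENCODE annotation, where Psmb9 begins further upstream than the RefSeq start used for the promoters above, Tap1 and Psmb9 overlap each other on opposite strands, and Tapbp overlaps Zbtb22 on the same strand. Whether the authors' counting used strand is not given in the sources used here, so reads in these overlaps cannot be assigned.

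**Figure D2:**
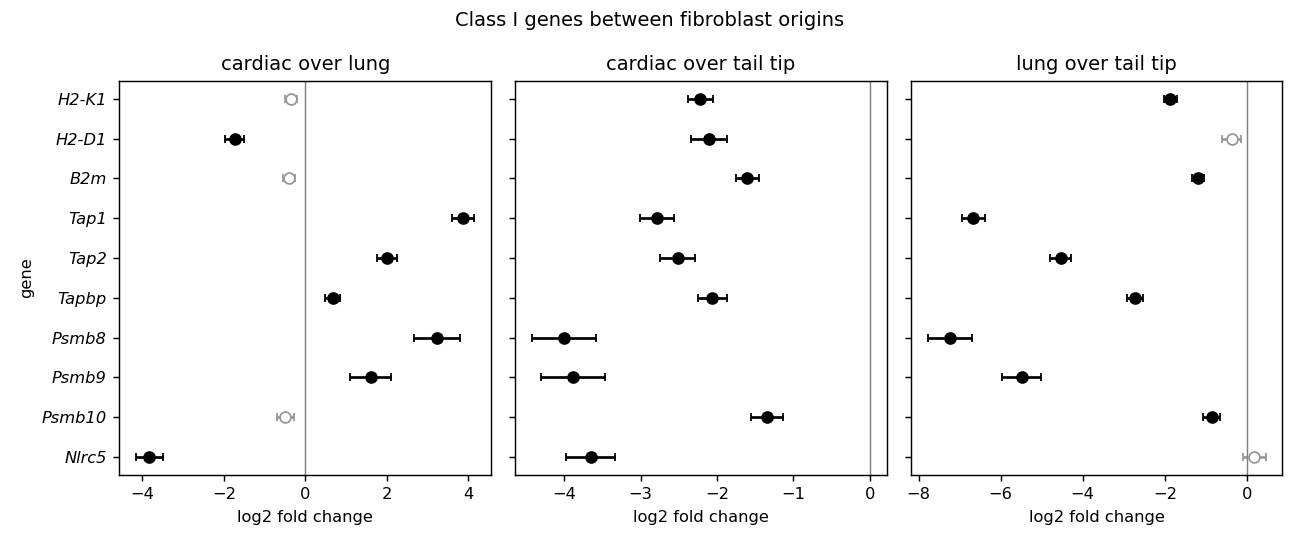
Log2 fold change (x axis) of each of the 10 genes (y axis) in 3 panels: cardiac against lung, cardiac against tail tip and lung against tail tip fibroblasts. Bars are standard errors derived from the edgeR test statistic, and black points passed the edgeR test. In the first panel 5 genes were called on the positive side and 2 on the negative side, in the second all 10 were called lower, and in the third H2-D1 (-0.37) and Nlrc5 (0.18) are the uncalled points.

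Against tail tip fibroblasts, all 10 genes were called lower in cardiac fibroblasts by edgeR. Of all tested genes, 18.0% were called lower and 15.5% higher, and the median log2 fold change was -2.37 over the 10 genes and -0.06 over all tested genes. No value of the 10 genes overlapped between cardiac and tail tip libraries. The share of all tested genes without such an overlap was not counted, so this is not read as particular to the 10. On the log2 scale the difference was -4.003 for Psmb8 (SE 0.42, edgeR adjusted p = 0.000498), -3.88 for Psmb9 (SE 0.42) and -3.65 for Nlrc5 (SE 0.32). The transporter genes were lower by less, with differences of -2.79 for Tap1 (SE 0.22) and -2.51 for Tap2 (SE 0.23). Tapbp fell by 2.06 (SE 0.19), a step like those of the heavy chains, which were -2.22 for H2-K1 (SE 0.16) and -2.10 for H2-D1 (SE 0.24). B2m, at -1.60 (SE 0.15), and Psmb10, at -1.34 (SE 0.21, edgeR adjusted p = 0.00277), moved least. These 10 calls held under every alternative test, filter, scaling and left-out library run. Of the 14 leukocyte markers 13 were also lower in cardiac fibroblasts, and their part in the result was not tested.

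Lung fibroblasts were lower than tail tip fibroblasts in 8 of 10 genes by edgeR, where 28.2% of all tested genes were called lower and 22.3% higher. The median log2 fold change was -2.30 over the 10 genes and -0.06 over all tested genes. This comparison shares the tail tip libraries with the one above. The difference was -7.24 for Psmb8 (SE 0.54, edgeR adjusted p = 5.5e-05), -6.67 for Tap1 (SE 0.28, edgeR adjusted p = 6.8e-06), -5.48 for Psmb9 (SE 0.48), -4.53 for Tap2 (SE 0.26) and -2.74 for Tapbp (SE 0.20). The surface molecule's own genes differed less: -1.87 for H2-K1 (SE 0.16) and -1.19 for B2m (SE 0.15). H2-D1 was not called, at -0.37 (SE 0.23, edgeR adjusted p = 0.213). It was called with limma-voom (adjusted p = 0.0313) and, in edgeR, without the cardiac Ad-Cre library (adjusted p = 0.00620), the cardiac Ad-GFP library (adjusted p = 0.00377) or the lung Ad-Cre library, where it was -0.77 (adjusted p = 0.0153). Nlrc5 was not called either, at 0.18 (SE 0.28, edgeR adjusted p = 0.628), and its sign turned to -0.20 without the tail tip Ad-Cre library. Psmb10 fell by 0.86 (SE 0.20, edgeR adjusted p = 0.0105), a call lost without the lung Ad-GFP library (edgeR adjusted p = 0.0518) or the tail tip Ad-GFP library (edgeR adjusted p = 0.252). All 14 leukocyte markers were lower in lung fibroblasts, and their part in the result was not tested.

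The makeup of the heavy chain reads also differed between the origins. Reads of H2-D1 per read of H2-K1 were 0.724 and 0.994 in the cardiac Ad-Cre and Ad-GFP libraries, 2.31 and 2.13 in the lung Ad-Cre and Ad-GFP libraries, and 0.773 and 0.815 in the tail tip Ad-Cre and Ad-GFP libraries. The lung libraries alone had more reads of H2-D1 than of H2-K1, and the cardiac and tail tip ranges overlapped. Of the reads on 13 class I heavy chain genes, H2-D1 took 29.5% and 38.1% in the cardiac Ad-Cre and Ad-GFP libraries, 60.6% and 58.1% in the lung Ad-Cre and Ad-GFP libraries, and 30% and 31.5% in the tail tip Ad-Cre and Ad-GFP libraries. The tail tip libraries stood apart in H2-T10, a nonclassical heavy chain gene, which took 0.31% and 0.22% in the cardiac Ad-Cre and Ad-GFP libraries, 0.252% and 0.379% in the lung Ad-Cre and Ad-GFP libraries, and 5.87% and 4.80% in the tail tip Ad-Cre and Ad-GFP libraries. Heavy chain genes share stretches of sequence to differing degrees. Of all 50-base windows of their exons, 9.63% of H2-K1 and 12.8% of H2-D1 also occur in another gene, as do 32.9% of H2-T10 and 0.576% of H2-M3. Of 100-base windows, 0.957% of H2-K1, 3.59% of H2-D1 and 7.06% of H2-T10 do. How the authors' counting treated such reads is not given in the sources used here. Heavy chains also vary between mouse strains, and the labels give no strain, so a loss of reads from alleles unlike the genome used was not tested.

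**Figure D3:**
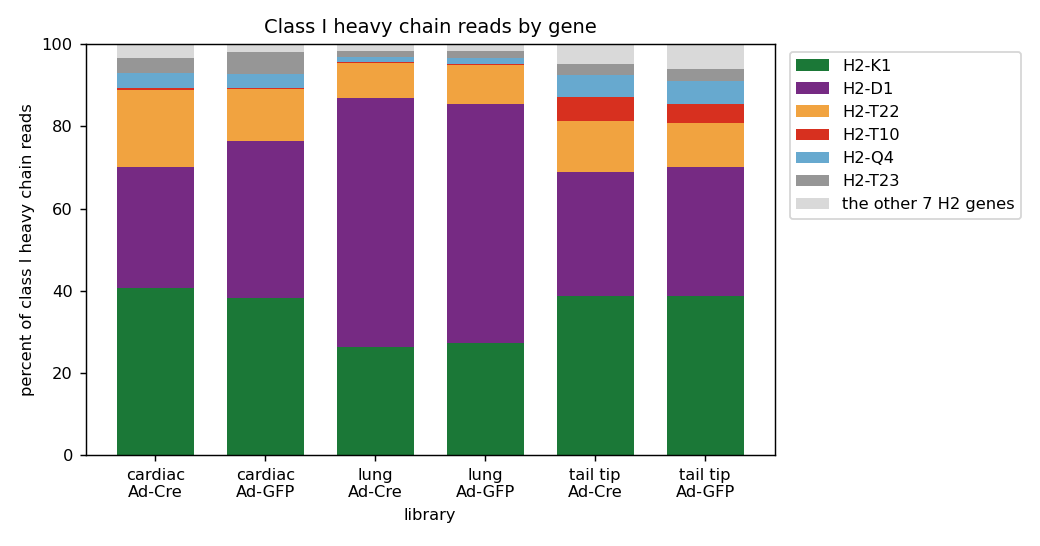
Stacked bars of the percent of class I heavy chain reads (y axis, from 0) that each of 13 H2 genes took in each of the 6 libraries (x axis). The H2-D1 section covers 60.6% and 58.1% in the lung Ad-Cre and Ad-GFP libraries and 29.5% to 38.1% in the other 4.

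Set against the constitutive subunits they replace, and per kilobase of annotated exon, the inducible proteasome subunits took their highest shares in tail tip fibroblasts. The lengths were 3381 bases for Psmb8 and 899 for Psmb5, and 3660 for Psmb9 and 1872 for Psmb6. For Psmb10 and Psmb7 they were 1705 and 3421. The shares depend on these lengths, so they compare libraries and do not measure a subunit's part of the proteasome. By reads alone, the tail tip Ad-GFP library had 1056 of Psmb8 and 1052 of Psmb5. Psmb8 made up 0.815% and 2.83% of Psmb8 plus Psmb5 in the cardiac Ad-Cre and Ad-GFP libraries, 0.0591% and 0.0748% in the lung Ad-Cre and Ad-GFP libraries, and 18% and 21.1% in the tail tip Ad-Cre and Ad-GFP libraries. Psmb9 made up 0.424% and 0.435% of Psmb9 plus Psmb6 in the cardiac Ad-Cre and Ad-GFP libraries, 0.0659% and 0.146% in the lung Ad-Cre and Ad-GFP libraries, and 6.31% and 7.66% in the tail tip Ad-Cre and Ad-GFP libraries. For both subunits the order was tail tip, cardiac and lung. Psmb10 made up 17% and 15.9% of Psmb10 plus Psmb7 in the cardiac Ad-Cre and Ad-GFP libraries, 24.3% and 21.8% in the lung Ad-Cre and Ad-GFP libraries, and 50.3% and 55.8% in the tail tip Ad-Cre and Ad-GFP libraries. Both lung values exceeded both cardiac values for Psmb10 alone of the 3 subunits; these shares were not tested, and the level of Psmb10 itself did not pass between cardiac and lung. The constitutive subunits went the other way between lung and tail tip, where Psmb5, Psmb6 and Psmb7 were all higher in lung fibroblasts (1.32, 0.61 and 1.07 on the log2 scale, SE 0.15, 0.18 and 0.15, edgeR adjusted p = 0.000366, 0.0242 and 0.000903). Of all tested genes, 22.3% were called higher there. Psmb7 was also higher in cardiac than tail tip fibroblasts (1.18, SE 0.15, edgeR adjusted p = 0.00113), while Psmb5 (-0.15) and Psmb6 (0.21) were not called.

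The wider pathway was read from lists of related genes. Against tail tip fibroblasts, edgeR called 18.0% of all tested genes lower in cardiac and 28.2% lower in lung fibroblasts. Of 12 other class I heavy chains, 9 were lower in cardiac than in tail tip fibroblasts and 9 lower in lung than in tail tip fibroblasts by edgeR, with H2-T10 at -6.59 (SE 0.25) and -5.42 (SE 0.23). Of 6 loading and trimming genes, 3 were lower in cardiac than tail tip fibroblasts, led by the tapasin-related gene Tapbpl (-1.03, SE 0.25), while in lung against tail tip 2 were lower, Tapbpl (-2.01, SE 0.26) and the trimming peptidase Erap1 (-1.25, SE 0.21), and the chaperone Canx was higher (0.66, SE 0.19), lung counts near the 28.2% lower and 22.3% higher of all tested genes. Psme1 and Psme2 encode the PA28 proteasome activator. Psme2 was lower than in tail tip in both cardiac (-1.56, SE 0.15) and lung fibroblasts (-1.41, SE 0.15) by edgeR, and Psme1 in cardiac fibroblasts (-1.16, SE 0.16) but not past the test in lung fibroblasts (-0.31, SE 0.16, adjusted p = 0.153). Between cardiac and lung, Psme1 was lower in cardiac fibroblasts (-0.85, SE 0.16), as was Psmb5 (-1.47, SE 0.15).

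Of 11 transcription factors of class I genes, edgeR called 5 lower and 1 higher in cardiac against lung, 3 lower and 2 higher in cardiac against tail tip, and 3 lower and 3 higher in lung against tail tip. The shares of all tested genes were 17.6% lower and 20.8% higher, 18.0% lower and 15.5% higher, and 28.2% lower and 22.3% higher in the same order, so several of these counts are near the background. Irf1, an activator of many of the 10 genes, had 8.97 and 6.73 CPM in the cardiac Ad-Cre and Ad-GFP libraries, 25.5 and 18.8 CPM in the lung Ad-Cre and Ad-GFP libraries, and 39.4 and 45.4 CPM in the tail tip Ad-Cre and Ad-GFP libraries. It was lower in cardiac than lung (-1.497, SE 0.22, edgeR adjusted p = 0.00220), lower in cardiac than tail tip (-2.45, SE 0.23) and lower in lung than tail tip (-0.96, SE 0.21). Irf1 therefore had the cardiac libraries lowest, as Nlrc5, H2-D1, H2-K1, B2m and Psmb10 did. For H2-K1, B2m and Psmb10 the difference of cardiac minus lung was not called. Tap1, Tap2, Tapbp, Psmb8 and Psmb9 had the lung libraries lowest. Rfx5, part of the complex that binds the X box, was lower in cardiac than tail tip (-1.71, SE 0.33, edgeR adjusted p = 0.00783) and missed the threshold in cardiac against lung (-0.96, SE 0.33, edgeR adjusted p = 0.0583).

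Interferon-responsive lists had their highest levels in tail tip fibroblasts. Against tail tip fibroblasts, edgeR called 18.0% of all tested genes lower in cardiac and 28.2% lower in lung fibroblasts. All 24 genes of the type I interferon response list were lower in cardiac and in lung than in tail tip fibroblasts by edgeR, with medians of -5.52 and -5.18 on the log2 scale. Its summed level was 177 and 237 CPM in the cardiac Ad-Cre and Ad-GFP libraries, 165 and 153 CPM in the lung Ad-Cre and Ad-GFP libraries, and 3089 and 3544 CPM in the tail tip Ad-Cre and Ad-GFP libraries. Between cardiac and lung the list was mixed, with 10 genes higher and 5 lower in cardiac fibroblasts by edgeR, where 20.8% of all tested genes were called higher and 17.6% lower. Ifi44 was 2.78 higher (SE 0.21, edgeR adjusted p = 0.000110), and so was Irf7, an interferon-induced factor, at 2.06 (SE 0.29). Isg15 (-1.94, SE 0.20), Ifit1 (-1.93, SE 0.27) and Rtp4 (-1.93, SE 0.28), named for the other direction after their values were seen, were lower in cardiac fibroblasts. Of 13 interferon-inducible GTPases, 12 were lower in cardiac and 12 lower in lung than in tail tip fibroblasts (18.0% and 28.2% of all tested genes). Of 11 interferon receptor and signalling genes, 9 were lower in cardiac and 8 lower in lung than in tail tip fibroblasts, with Stat2 at -4.07 (SE 0.17) and -3.80 (SE 0.17). The class II presentation list stayed at low levels, summing to 12.6 and 10.1 CPM in the cardiac Ad-Cre and Ad-GFP libraries, 4.95 and 3.81 CPM in the lung Ad-Cre and Ad-GFP libraries, and 49.9 and 47.2 CPM in the tail tip Ad-Cre and Ad-GFP libraries. The leukocyte sums given above follow the same order of origins as Tap1, tail tip above cardiac above lung, and their part in these lists was not tested.

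**Figure D4:**
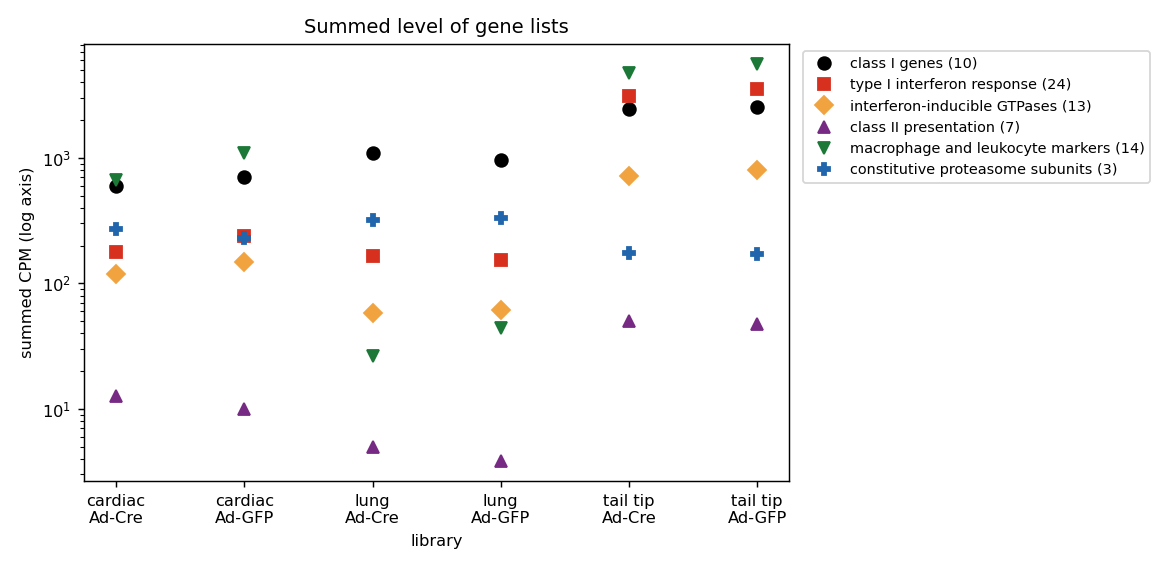
Summed CPM of gene lists (log y axis) in each of the 6 libraries (x axis), 1 symbol per list. The class I genes run from 592 CPM in the cardiac Ad-Cre library to 2553 CPM in the tail tip Ad-GFP library, and the leukocyte markers from 26.3 CPM in the lung Ad-Cre library to 5615 CPM in the tail tip Ad-GFP library.

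Other genes were ranked by how closely their pattern over the 6 libraries matched, as the root mean square difference of centred log2 CPM among 12542 genes. Closest to Tap1 were Cacna1a (0.146), Fabp7 (0.179), Irak3 (0.219), Cebpa (0.234) and Anpep (0.256). Close to H2-K1 were Herc6 (0.13), Eif2ak2 (0.146), Plag1 (0.164) and Cacng7 (0.166). For B2m the closest were the lysosomal protease gene Ctsl (0.054), Zmym3 (0.073), Ndufv3 (0.089), Taz (0.093) and Fbxw17 (0.105). Nlrc5 had no neighbour as close: Fmnl2 (0.326), Ccbe1 (0.421), Igfbp6 (0.429), Tspan11 (0.43) and Dach2 (0.431).

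Libraries labelled Ad-Cre and Ad-GFP were compared, with Gata4 RNA at the levels given above, which were not lower with Ad-Cre, and no gene of the 10 passed the test. Over the 3 origins 0 of 10 were called by edgeR, where 0% of all tested genes were called (adjusted p of at least 0.9996 for each of the 10), and DESeq2 and limma-voom called 0 of the 10. At an unadjusted p under 0.05 edgeR listed 0 of the 10 and 367 of all tested genes. The median log2 fold change was -0.06 over the 10 genes and 0.00 over all tested genes, with single genes between -0.79 for Psmb8 (SE 0.37) and 0.33 for Nlrc5 (SE 0.24). For H2-K1, H2-D1, B2m, Tap1, Tap2, Tapbp and Psmb10 the sign turned when single libraries were left out. These are 3 origins with 1 pair each, and a p that misses the threshold does not show equal levels.

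Within an origin there were 2 libraries and no replicate check, so ratios are given with exact 95% intervals that cover counting error only. In cardiac fibroblasts 2 of 10 genes differed at least 2-fold on the log2 scale with a prior count of 2, where 20.3% of all tested genes did. Psmb8 was at 0.950 CPM in the Ad-Cre library and 3.47 CPM in the Ad-GFP library, a ratio of 0.273 (0.175 to 0.414), and Nlrc5 at 2.91 CPM in the Ad-Cre library and 1.32 CPM in the Ad-GFP library, a ratio of 2.20 (1.52 to 3.25). Among the genes under 2-fold, H2-D1 had a ratio of 0.608 (0.579 to 0.638), Tap2 of 0.676 (0.574 to 0.796) and Tap1 of 1.48 (1.28 to 1.71), so that the transporter subunits differed in direction. The cardiac pair also differed in other cells' markers. Leukocyte markers summed to 670 CPM in the Ad-Cre library and 1103 CPM in the Ad-GFP library, the 8 epithelial markers to 145 CPM in the Ad-Cre library and 14.4 CPM in the Ad-GFP library, and the 5 mesothelial markers to 116 CPM in the Ad-Cre library and 56.7 CPM in the Ad-GFP library. Of the 5 mesothelial markers, 3 were at least 2-fold higher in the Ad-Cre library and 1 was lower. That was Lrrn4, at 9.43 CPM in the Ad-Cre library and 32.2 CPM in the Ad-GFP library. None of these marker lists had a gene at 0 in either cardiac library, and their part in the ratios was not tested.

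In lung fibroblasts 1 of 10 genes reached 2-fold, where 7.69% of all tested genes did. It was Psmb9, with 4 reads in the Ad-Cre library and 11 reads in the Ad-GFP library, and its interval (0.0959 to 1.39) included 1. The ratios of H2-K1 (1.11, 1.07 to 1.16), H2-D1 (1.20, 1.17 to 1.24), B2m (1.09, 1.06 to 1.12), Tapbp (1.24, 1.13 to 1.37) and Nlrc5 (1.21, 1.09 to 1.33) lay above 1. The lung pair also differed in other cells' markers: epithelial markers summed to 8.93 CPM in the Ad-Cre library and 2.06 CPM in the Ad-GFP library, leukocyte markers to 26.3 CPM in the Ad-Cre library and 44.4 CPM in the Ad-GFP library, and mesothelial markers to 193 CPM in the Ad-Cre library and 153 CPM in the Ad-GFP library. Epcam and Dsp had no read in the Ad-Cre library, and Dsp and Cldn4 none in the Ad-GFP library. Much of the lung leukocyte difference lay in Cd53, at 11.1 CPM in the Ad-Cre library and 24.7 CPM in the Ad-GFP library. Of the 14 leukocyte markers, 3 were at least 2-fold lower in the lung Ad-Cre library and 0 higher. Csf1r stood at 4.56 CPM in the Ad-Cre library and 3.60 CPM in the Ad-GFP library. The lung mesothelial sums were nearly all Msln, at 193 CPM in the Ad-Cre library and 153 CPM in the Ad-GFP library. Upk3b and Lrrn4 had no read in the Ad-Cre library, and Upk3b, Upk1b, Lrrn4 and Wt1 none in the Ad-GFP library. The part of these markers in the ratios was not tested. Tail tip fibroblasts had 0 of 10 genes at 2-fold, where 3.10% of all tested genes were. There the ratios ran from 0.778 for Psmb9 to 1.03 for Tap2, with H2-K1 at 0.925 (0.906 to 0.943) and H2-D1 at 0.877 (0.858 to 0.897). With all 13 heavy chain genes summed, so that the choice between them for a shared read does not count, the ratio was 0.785 (0.763 to 0.807) in cardiac, 1.15 (1.13 to 1.18) in lung and 0.923 (0.911 to 0.934) in tail tip fibroblasts. Reads shared with genes outside the 13, such as H2-T-ps, or dropped for having several matches are not recovered by the sum.

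**Figure D5:**
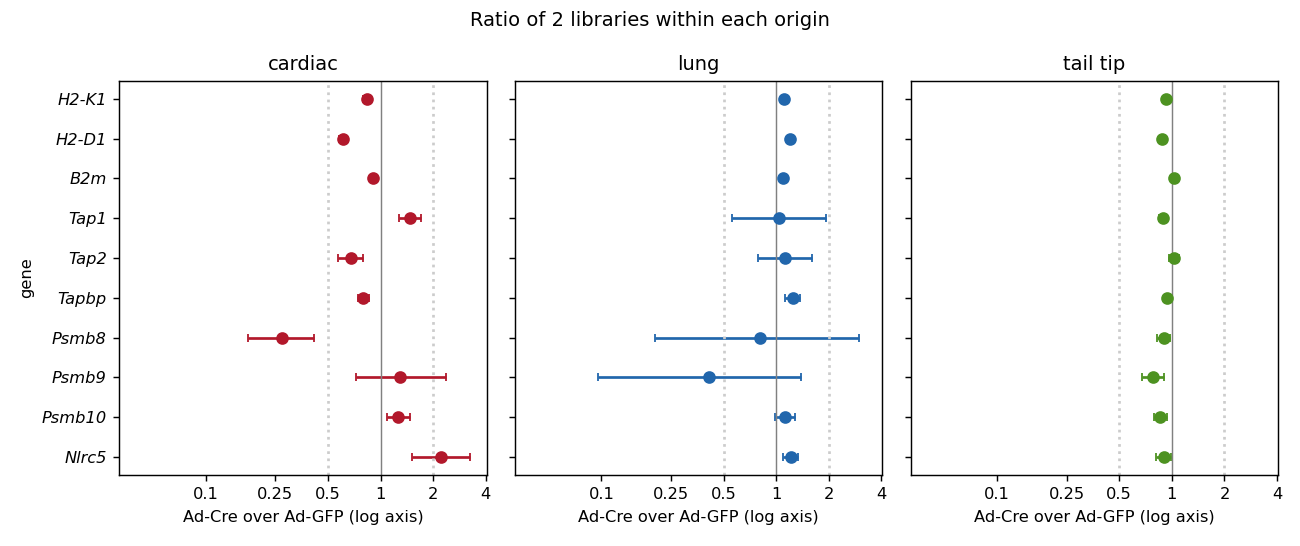
Ratio of Ad-Cre to Ad-GFP CPM (log x axis) for each of the 10 genes (y axis) in 3 panels by origin. Bars are exact 95% counting intervals, and dotted lines mark 2-fold. The cardiac panel spreads from 0.273 for Psmb8 to 2.20 for Nlrc5, and the tail tip panel stays between 0.778 and 1.03.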

How the data were processed

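The 6 libraries are bulk polyA RNA-seq, 1 per origin and virus. The values are whole read counts per gene as deposited by the authors; the submitters' processing notes name STAR 2.0.7 and the build mm39. The sources used here name no counter, annotation, strand setting or filter. Columns were matched to samples by their names; the labels name a matrix with another title. Of the 57180 identifiers, 51884 had a symbol; 0 columns of per-sample values were unused. Symbols, exon lengths and overlaps came from the GENCODE M21 annotation of GRCm38, and promoters from RefSeq.

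Genes passing filterByExpr (minimum count 10; 18143 genes) were fitted with edgeR 4.0.16 (R 4.3.3), TMM scaling, origin and virus as terms and robust quasi-likelihood tests, leaving 2 residual degrees of freedom, with Benjamini-Hochberg adjustment at 0.05 over all tested genes. DESeq2 1.42.0, limma 3.58.1 (voom with sample weights), other scalings and filters, and each library left out were alternatives. The scripts were tested on simulated data. With 1 library per group, the residual is the difference between origins in their change from Ad-GFP to Ad-Cre. It stands in for replicate spread, which was not measured, in every standard error and p-value. The labels state no separate cultures, so part of that residual may be technical. Each SE was derived from the test, as the absolute log2 fold change divided by the square root of the quasi-likelihood F statistic. Counting intervals cover counting error only. With 26170316 to 33779069 reads, 3 counts equal about 0.1 CPM.

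The genes and lists were chosen with earlier results of these data known. All 10 genes are named in each comparison; list examples are among those of largest fold change at a mean of at least 1 CPM, and neighbours are among the 5 closest genes at that mean; some items that these rules name are not reported here. Origin acts as the block in the virus test, since each origin gives 1 pair.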

Additional observations from a re-analysis of the deposited data

Results flagged for a closer look

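For 7 of the 10 genes the ratio of Ad-Cre to Ad-GFP lay on opposite sides of 1 in different origins, with counting intervals that did not include 1. Each ratio compares 2 libraries, and the difference between origins was not tested. The intervals cover counting error only. For a gene with many reads they can leave out 1 at a small difference, as for B2m in tail tip fibroblasts (ratio 1.02). The share of all tested genes that meet the same rule was not counted, so the count is not read as particular to the 10. H2-K1 stood at 0.834 in cardiac, 1.11 in lung and 0.925 in tail tip fibroblasts. H2-D1 stood at 0.608 in cardiac, 1.20 in lung and 0.877 in tail tip fibroblasts. B2m stood at 0.906 in cardiac, 1.09 in lung and 1.02 in tail tip fibroblasts, so that cardiac alone was below 1. Tapbp stood at 0.796 in cardiac, 1.24 in lung and 0.939 in tail tip fibroblasts. Tap1 stood at 1.48 in cardiac and 0.888 in tail tip fibroblasts, and Psmb10 at 1.27 in cardiac and 0.860 in tail tip fibroblasts. Nlrc5 stood at 2.20 in cardiac, 1.21 in lung and 0.897 in tail tip fibroblasts.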

How the results depend on the processing

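No paired analysis was possible because each group has 1 library and no further replicate number, apart from the virus test, which already pairs the libraries of each origin. Fits that leave out an origin's pair were added after seeing the data, and keep 1 residual degree of freedom. The counts of genes called stayed at 10 in cardiac against tail tip and 0 for virus, and within 1.5 times in the other 2 comparisons. In lung fibroblasts the count past 2-fold was 0 with a prior count of 5 and 0 without the low-count filter, against 1. Between origins 1 fold change turned sign, that of Nlrc5 in lung against tail tip, which lay between -0.20 and 0.59 with single libraries left out. Psmb9 in cardiac against lung also lost its call without the tail tip pair (edgeR adjusted p = 0.262), and H2-D1 in lung against tail tip was called without the cardiac pair (edgeR adjusted p = 0.0137).

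Uncalled virus fold changes turned sign in 29 of the gene and setting combinations. With single libraries left out they lay between -0.19 and 0.0238 for H2-K1, -0.46 and 0.0445 for H2-D1, -0.0585 and 0.0847 for B2m, -0.15 and 0.38 for Tap1, -0.25 and 0.0818 for Tap2, -0.21 and 0.11 for Tapbp, and -0.0517 and 0.25 for Psmb10. Without the cardiac pair they were 0.016 for H2-K1, 0.0368 for H2-D1, -0.14 for Tap1, 0.0702 for Tap2, 0.0985 for Tapbp and -0.0366 for Psmb10. B2m was -0.0057 with DESeq2 and with its size factors in edgeR, -0.0504 without the lung pair and -0.0341 without the tail tip pair. With limma-voom Tap1 was -0.11, Tap2 0.0059, Psmb10 -0.10 and Nlrc5 -0.0117. The cause was not tested. With library totals the cardiac log2 ratios were -0.18 for H2-K1, -0.64 for H2-D1 and -0.06 for B2m, and none of the ratios within an origin changed side of 1. Depth limits Psmb8 and Psmb9 in the lung libraries, which hold 4 to 11 reads of each.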

Other observations

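Of the class II presentation list, H2-Ab1, a class II chain, had 17 and 18 reads in the cardiac Ad-Cre and Ad-GFP libraries, none in the lung libraries, and 295 and 305 reads in the tail tip Ad-Cre and Ad-GFP libraries. Other genes of that list were read in lung fibroblasts: H2-DMa had 65 and 52 reads and Cd74 had 32 and 19 reads in the lung Ad-Cre and Ad-GFP libraries. Irgm1, an interferon-inducible GTPase, was higher in cardiac than lung fibroblasts, by 1.76 on the log2 scale (SE 0.15, edgeR adjusted p = 0.000177), while Iigp1 of the same list was lower, at -2.38 (SE 0.65, edgeR adjusted p = 0.0258). Ifnar1, a chain of the type I interferon receptor, was 1.20 higher in cardiac than lung fibroblasts (SE 0.15, edgeR adjusted p = 0.000926) and lower in lung than tail tip fibroblasts, at -1.83 (SE 0.15).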
